A study of Mus musculus with 4 samples.

Results

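The 10 genes described here form the R-spondin branch of the Wnt/β-catenin pathway. They are the receptors *Lgr4*, *Lgr5* and *Lgr6*, the ligands *Rspo1*, *Rspo2*, *Rspo3* and *Rspo4*, the membrane ubiquitin ligases *Znrf3* and *Rnf43*, and the feedback gene *Axin2*. They were chosen by gene symbol, and all 10 were found among the 23997 genes of the deposited table. The populations compared were Lgr5+ progenitors, the EGFP+ cells sorted from cochleae of Lgr5-EGFP-IRES-CreERT2 mice, and Lgr6+ progenitors, the EGFP+ cells of Lgr6-EGFP-IRES-CreERT2 mice. They are called Lgr5+ cells and Lgr6+ cells below, which stands only for the labels Lgr5+ and Lgr6+ of the sort and the column. Both came from mice labelled C57BL/6 at postnatal day 3, and each population was listed with 2 libraries, 4 in all. The methods say that the RNA of a population was divided before the libraries were made, so its libraries share 1 extraction. They give another number of replicates than the labels do, so which libraries each combined value holds is uncertain. In these alleles the reporter is read from the promoter of the receptor gene itself, so the sort follows the activity of that promoter. The number of altered gene copies in each mouse is not given in the sources used here. Nor is the effect of such a copy on the transcript of its receptor gene. Mouse line and population cannot be told apart.

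The table gives 1 FPKM value per gene for each population, with its replicates combined. FPKM scales the fragments of a gene by its transcript length and by the mapped fragments of the library, so it can be compared between genes. No spread between replicates can be given, and no difference below has a replicate check or a test. A gene was kept when its FPKM reached 1 in either population, which 13436 genes did. The log2 change is log2(FPKM + 1) in Lgr6+ cells less that in Lgr5+ cells, a scale that understates the change of low genes. Summed FPKM was 754163 in Lgr5+ cells and 627932 in Lgr6+ cells. Setting these totals equal raises the median log2 change of kept genes from 0.035 to 0.27, a shift of 0.23.

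Wnt ligands bind Frizzled receptors together with Lrp5 or Lrp6, which stops the complex of Axin, Apc and Gsk3 from destroying β-catenin, so that β-catenin can drive TCF/LEF target genes. Znrf3 and Rnf43 limit this signal by removing Frizzled receptors from the cell surface. An R-spondin bound to an Lgr receptor pulls these ligases away and so keeps Frizzled receptors in place. *Lgr5*, *Znrf3*, *Rnf43* and *Axin2* are themselves known Wnt target genes, and the paper names *Lgr6* as a Wnt target too. In the newborn cochlea *Lgr5* marks supporting cells that can divide and form hair cells (HCs) when Wnt signaling is activated.

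*Lgr5* was the highest of the 10 genes in both populations and was higher in Lgr6+ than in Lgr5+ cells. The R-spondins *Rspo1* and *Rspo3* were also higher in Lgr6+ cells, from very low values in Lgr5+ cells. *Lgr4*, *Lgr6*, *Rspo2*, *Znrf3*, *Rnf43* and *Axin2* differed by less than 1.5-fold on the log2(FPKM + 1) scale, and *Rspo4* was listed at 0 in both. Of the 9 genes that were kept, 3 (33.3%) were at least 1.5-fold higher in Lgr6+ cells and 0 were at least 1.5-fold higher in Lgr5+ cells. Over the whole table, a share of 28.5% of kept genes passed this limit toward Lgr6+ cells and 23.3% toward Lgr5+ cells, so the share among the members was close to that of the whole table. *Rspo1* and *Rspo3* were kept only through their values in Lgr6+ cells. With an FPKM of 0.2355 and 0 in Lgr5+ cells, being kept fixed the call of both. Where an FPKM of 1 was asked of both populations, 1 of 7 members, *Lgr5*, was higher in Lgr6+ cells, against 21.4% of 11177 genes. With equal totals these shares of the whole table were 36.9% and 16.3%. The median log2 change was 0.35 over the 9 genes and 0.035 over all kept genes. Of the 9 values, 6 were above 0 and 3 below.

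**Figure D1:**
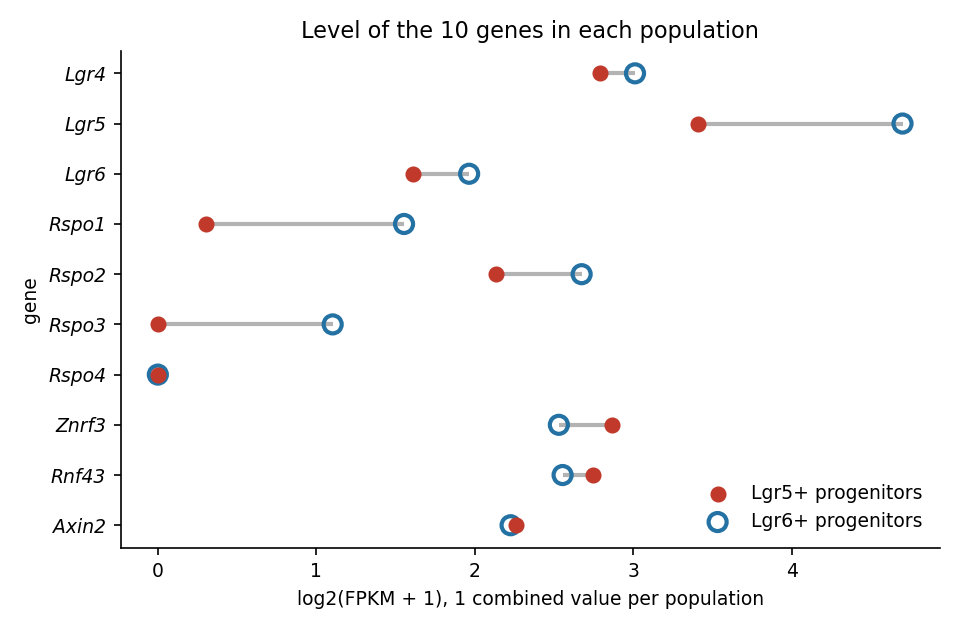
Level of each of the 10 genes as log2(FPKM + 1), with filled red points for Lgr5+ cells and open blue circles for Lgr6+ cells, each 1 combined value without an error. *Lgr5* lies furthest right in both populations, at an FPKM of 9.65 and 24.99, while *Axin2* holds nearly the same place in both.

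The genes used for the sort were examined first. *Lgr5*, on chromosome 10 from 115450314 to 115587780 (GRCm38, minus strand), encodes a receptor for R-spondins and a marker of stem cells in several epithelia. Its FPKM was 9.65 in Lgr5+ cells and 24.99 in Lgr6+ cells. The population sorted on the *Lgr5* reporter thus had the lower *Lgr5* level, by a factor of 2.59 and a log2 change of 1.29. *Lgr5* was thus lower under its own label. The paper describes Lgr6+ cells as a subpopulation of the Lgr5+ progenitors, so the labels alone do not fix this direction. Whether the columns carry the right names could not be settled from the table. Every direction given here rests on those names. An effect of the altered alleles on the levels of *Lgr5* and *Lgr6* was not tested. Of all kept genes, 12.2% changed as far as *Lgr5* or further toward Lgr6+ cells. Among the 4795 kept genes with a mean FPKM from 10 to 50, 21.7% were at least 1.5-fold higher in Lgr6+ cells and 7.32% changed as far as *Lgr5*. In Lgr5+ cells 50.6% of kept genes had a lower FPKM than *Lgr5*, against 74.0% in Lgr6+ cells.

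The table places a second gene, *A930009A15Rik*, on the same interval as *Lgr5*, and RefSeq puts it inside that interval, from 115569986 to 115582454. Its FPKM was 10.4 in Lgr5+ cells and 31.7 in Lgr6+ cells, a log2 change of 1.52. The sources used here state no strand for the counting, so reads shared between these overlapping genes cannot be told apart. The row is named because of this overlap, which was seen in the table.

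*Lgr6*, on chromosome 1 from 134986353 to 135105276 (minus strand), encodes the receptor whose reporter was used for the Lgr6+ sort and which marks stem cells of the skin. Its FPKM was 2.06 in Lgr5+ cells and 2.90 in Lgr6+ cells. This is the direction of the labels, but the ratio of 1.41 and the log2 change of 0.35 are under 1.5-fold, and 37.1% of kept genes changed as far or further in this direction. *Lgr6* was the lowest of the 3 receptors in both populations, and 19.7% of kept genes had a lower FPKM in Lgr5+ cells and 20.9% in Lgr6+ cells. The 250 bases before the *Lgr6* start are shown because the reporter of the Lgr6+ sort is read from this gene's promoter, and those before *Axin2* because this gene is widely read as a Wnt reporter. Both are from RefSeq (GRCm38.p6), 5′ to 3′ on the strand of the gene, with each CG pair in capitals.
Lgr6, chr1:135105277-135105526, minus strand: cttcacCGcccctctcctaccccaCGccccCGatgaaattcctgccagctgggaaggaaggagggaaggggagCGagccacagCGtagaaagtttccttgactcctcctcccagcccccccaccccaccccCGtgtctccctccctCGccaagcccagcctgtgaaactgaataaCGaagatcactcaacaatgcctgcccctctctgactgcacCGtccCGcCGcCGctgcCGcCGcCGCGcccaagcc
Axin2, chr11:108920099-108920348, plus strand: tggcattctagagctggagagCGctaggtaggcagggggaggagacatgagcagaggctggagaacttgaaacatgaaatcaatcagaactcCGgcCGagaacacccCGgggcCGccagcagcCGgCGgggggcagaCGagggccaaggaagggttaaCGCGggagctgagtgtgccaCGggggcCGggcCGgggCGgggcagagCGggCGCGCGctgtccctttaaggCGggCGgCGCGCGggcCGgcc

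The *Lgr6* stretch holds 16 CG pairs and the *Axin2* stretch 24, against a median of 6 over all 32851 RefSeq stretches of this length. Neither holds a TCF/LEF word on either strand, searched as the word CTTTGAA, as the word CTTTGAT, as the word CTTTGTA and as the word CTTTGTT. RefSeq stretches were matched for 6 of the 10 genes (*Lgr4*, *Lgr6*, *Rspo1*, *Rspo4*, *Rnf43* and *Axin2*), 7 stretches in all, and 0 of them hold such a word, against 14.8% of all stretches. These letters say nothing of sites outside the 250 bases.

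*Lgr4*, on chromosome 2 from 109917647 to 110014257 (plus strand), encodes the most widely expressed receptor of the family. Its FPKM was 5.91 in Lgr5+ cells and 7.07 in Lgr6+ cells, a log2 change of 0.22, which 42.0% of kept genes reached or passed. The 3 receptors together summed to an FPKM of 17.6 in Lgr5+ cells and 35.0 in Lgr6+ cells, a ratio of 1.98. *Lgr5* made up 54.8% of this sum in Lgr5+ cells and 71.5% in Lgr6+ cells. The share of *Lgr4* was 33.6% and 20.2%, and that of *Lgr6* was 11.7% and 8.30%. Such shares are formed within a population, so multiplying a population by 1 factor leaves them as they are, while quantile normalization does not.

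Set against each other inside a population, *Lgr5* stood at 4.68 times *Lgr6* in Lgr5+ cells and at 8.61 times *Lgr6* in Lgr6+ cells. *Lgr6* was therefore the smaller part of the pair in the population sorted on its own reporter, at 10.4% of the sum of *Lgr5* and *Lgr6* against 17.6% in Lgr5+ cells. *Lgr4* stood at 2.87 times *Lgr6* in Lgr5+ cells and at 2.43 times in Lgr6+ cells. The other leucine-rich repeat receptors of the wider family, *Fshr*, *Lhcgr*, *Tshr*, *Rxfp1* and *Rxfp2*, which bind glycoprotein hormones or relaxin-like peptides, were all 5 listed at 0 in both populations.

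**Figure D2:**
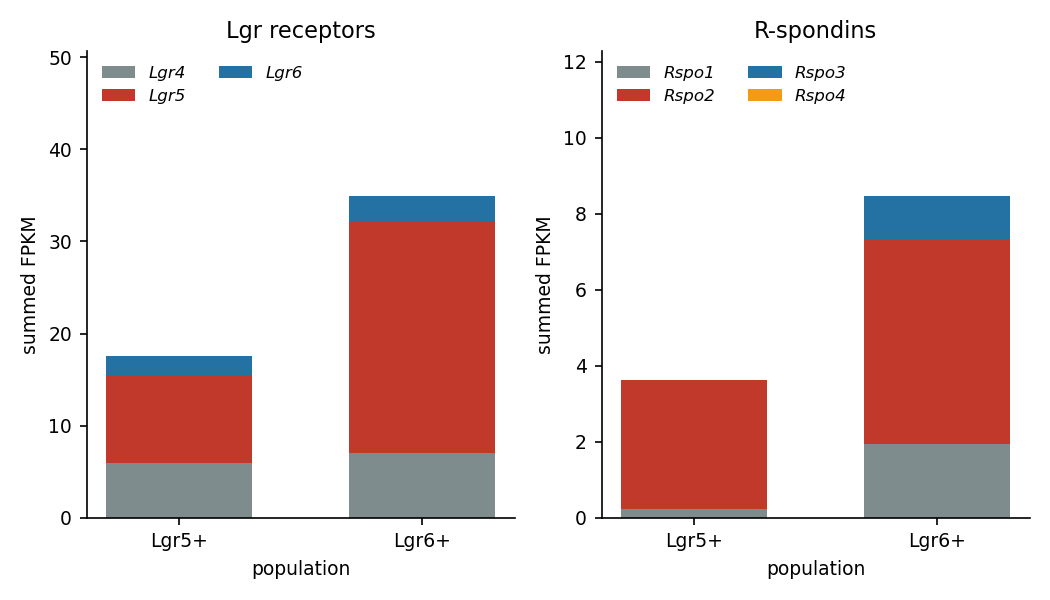
Summed FPKM of the 3 Lgr receptors (left) and of the 4 R-spondins (right) in each population, with 1 colour per gene and no error, as replicates are combined. The receptor bars reach 17.6 and 35.0, with most of the gap in *Lgr5*, and the R-spondin bars 3.63 and 8.47, with *Rspo4* at 0.

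The R-spondins are secreted ligands that bind the Lgr receptors. *Rspo2*, on chromosome 15 from 43020795 to 43170818 (minus strand) and known for its part in limb and lung development, was the highest of them in both populations. Its FPKM was 3.40 in Lgr5+ cells and 5.39 in Lgr6+ cells, a ratio of 1.58. On the log2(FPKM + 1) scale its change of 0.54 was just under the limit of 0.585 that stands for 1.5-fold. It passed the limit with a pseudocount of 0.1, with equal totals and as a plain ratio of FPKM.

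*Rspo1*, on chromosome 4 from 124986430 to 125009099 (plus strand) and known for its part in ovary determination, had an FPKM of 0.2355 in Lgr5+ cells and 1.94 in Lgr6+ cells. The log2 change was 1.25. *Rspo3*, on chromosome 10 from 29453107 to 29535867 (minus strand) and known for its part in blood vessel development, was listed at 0 in Lgr5+ cells and at an FPKM of 1.15 in Lgr6+ cells. Its log2 change of 1.10 depends on the added 1, and no ratio is given. Among the 2034 kept genes with a mean FPKM under 2, which include both, 49.8% were at least 1.5-fold higher in Lgr6+ cells, and 24.98% changed as far as *Rspo1* and 32.3% as far as *Rspo3*. *Rspo4*, on chromosome 2 from 151842927 to 151874668 (plus strand) and known from nail development, was listed at 0 in both populations.

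Low FPKM values fell on steps. Over 7050 genes with 1 annotated transcript, FPKM times transcript length less 200 bases showed a step of 0.128 FPKM kb in Lgr5+ cells and 0.0401 in Lgr6+ cells, 3.20 times finer in the latter. Within 2% of the step lay 93 genes in Lgr5+ cells, against 8.5 in stretches beside it, and 36 in Lgr6+ cells, against 6.5. The step was picked to make this gap as large as possible. At 2 steps, which were not picked, the counts were 29 against 7 in Lgr5+ cells and 19 against 5.5 in Lgr6+ cells. Transcript lengths came from an annotation of the NCBIM37 build. For the longest coding transcript of *Rspo1*, 1834 bases, the Lgr5+ value equals 2.998 steps and the Lgr6+ value 78.8 steps. For *Rspo3* the Lgr6+ value equals 62.8 steps, and 1 step in Lgr5+ cells would be an FPKM of 0.0585. *Lgr6* rests on 55.0 steps in Lgr5+ and 248 in Lgr6+ cells, and *Lgr5* on 339 and 2811. Whether a step is 1 fragment in combined values is not known, so no counting interval is given.

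The 4 R-spondins summed to an FPKM of 3.63 in Lgr5+ cells and 8.47 in Lgr6+ cells. *Rspo2* made up 93.5% of this sum in Lgr5+ cells and 63.6% in Lgr6+ cells. *Rspo1* held 6.48% and 22.9%, and *Rspo3* 0% and 13.6%. In both populations the R-spondin sum was well below the sum of the receptors.

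**Figure D3:**
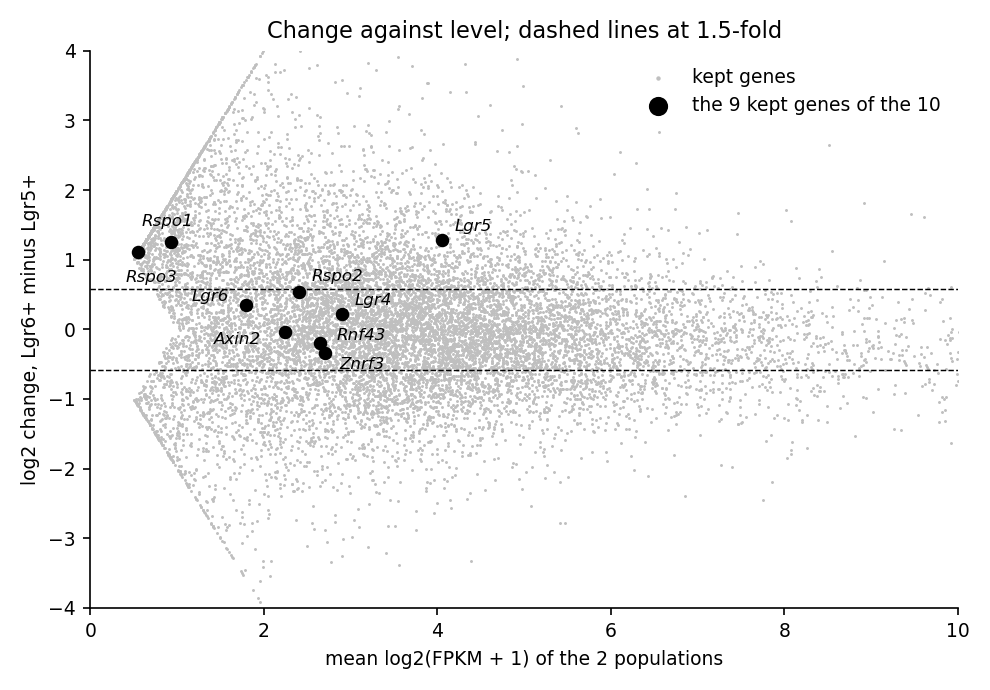
Log2 change (Lgr6+ minus Lgr5+) against mean log2(FPKM + 1) for the 13436 kept genes in grey and the 9 kept genes of the R-spondin branch in black, with dashed lines at 1.5-fold; 168 kept genes lie beyond the axes. *Lgr5*, *Rspo1* and *Rspo3* lie above the upper line, and the latter pair sits where grey points spread widely.

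Both ligases differed by less than 1.5-fold between the populations. *Znrf3*, on chromosome 11 from 5276329 to 5444847 (minus strand), had an FPKM of 6.30 in Lgr5+ cells and 4.78 in Lgr6+ cells, a log2 change of -0.34. Of kept genes, 33.4% changed as far or further toward Lgr5+ cells. *Rnf43*, on chromosome 11 from 87663087 to 87735539 (plus strand), had 5.70 and 4.88. Its log2 change was -0.19, which turns to 0.032 when totals are set equal.

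*1110028F11Rik*, a noncoding gene placed by the table on the interval of *Rnf43*, was listed at 0 and 0.0144. *Znrf3* stood at 1.10 times *Rnf43* in Lgr5+ cells and at 0.980 times in Lgr6+ cells. The summed level of both ligases was 11.998 in Lgr5+ cells and 9.66 in Lgr6+ cells. The summed FPKM of the 3 receptors was 1.47 times that of the ligases in Lgr5+ cells and 3.62 times in Lgr6+ cells. The summed FPKM of the 10 Frizzled receptors, the targets of the ligases, was 12.1 times that of the ligases in Lgr5+ cells and 11.6 times in Lgr6+ cells.

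*Axin2*, on chromosome 11 from 108920349 to 108950781 (plus strand), encodes a scaffold of the β-catenin destruction complex that is made in response to Wnt signaling and then limits it. Its FPKM was 3.80 in Lgr5+ cells and 3.68 in Lgr6+ cells. The log2 change was -0.037, and 96.4% of kept genes changed as far or further in either direction. It turns to 0.17 with equal totals. Taken relative to the median of all kept genes, the changes of *Znrf3*, *Rnf43* and *Axin2* were -0.37, -0.22 and -0.071 as deposited and -0.38, -0.24 and -0.096 with equal totals. The change of *Lgr5* relative to that median was 1.25 as deposited and 1.27 with equal totals.

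By FPKM the order in Lgr5+ cells was *Lgr5*, *Znrf3*, *Lgr4*, *Rnf43*, *Axin2*, *Rspo2*, *Lgr6* and *Rspo1*, with *Rspo3* and *Rspo4* at 0. In Lgr6+ cells it was *Lgr5*, *Lgr4*, *Rspo2*, *Rnf43*, *Znrf3*, *Axin2*, *Lgr6*, *Rspo1* and *Rspo3*, with *Rspo4* at 0. *Lgr5* leads and *Lgr6* is seventh in both. Without replicate values it cannot be said which neighbours in these orders differ. With 2 values per gene, no measure of which other genes follow a like pattern can be formed.

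The marker genes of the sorted cells and of other cochlear cells were examined because they can move with these levels. In bulk RNA a smaller number of cells of a type cannot be told apart from less RNA per cell. Shares of all kept genes to set beside the marker counts are 28.5% toward Lgr6+ cells and 23.3% toward Lgr5+ cells. *Sox2*, a marker of supporting cells, was present in both populations, at an FPKM of 139.6 in Lgr5+ cells and 54.8 in Lgr6+ cells. Of the 7 supporting cell markers, 3 were at least 1.5-fold higher in Lgr5+ cells and 0 in Lgr6+ cells. Their summed FPKM was 3837 in Lgr5+ and 3470.3 in Lgr6+ cells, but *S100a1* alone made up 77.1% and 91.5% of these sums. Without it they were 878 and 293, a ratio of 0.334, or 0.401 with equal totals. *Hes5*, a Notch target and the marker with the largest change, had 505 in Lgr5+ and 91.7 in Lgr6+ cells. Of the 3 pillar cell markers, 2 were at least 1.5-fold higher in Lgr5+ cells, and the sum was 104 and 70.1, of which *Fgfr3* made up 79.7% and 94.3%. Of the 2, *Ngfr* (2.04 and 0.531) was kept only through Lgr5+ cells. *Hey2*, a further Notch target, had 19.0 and 3.48. Of the 3 markers of the greater epithelial ridge, 1 was higher on each side, *Otoa* in Lgr6+ cells (7.51 and 54.0) and *Fgf10* in Lgr5+ cells (34.2 and 13.2). Their sum was 448 and 338, and 41.7 and 67.3 without *Tecta*. Of the 7 supporting cell markers, 6 had a log2 change below 0, as deposited and with equal totals, whereas that of *Lgr5* was above 0. *Lgr5* equalled 0.0691 times *Sox2* in Lgr5+ and 0.456 times *Sox2* in Lgr6+ cells.

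Of the 8 HC markers, 7 were at least 1.5-fold higher in Lgr6+ cells, against 28.5% of all kept genes. Their summed FPKM was 234 in Lgr5+ cells and 529.9 in Lgr6+ cells. *Pou4f3*, a transcription factor needed by HCs, had 31.0 and 49.0, and *Myo7a*, a HC myosin, had 19.3 and 47.0. HC transcripts were thus present in both populations, at higher values in Lgr6+ cells for 8 of 8 markers.

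All 6 endothelial markers were at least 1.5-fold higher in Lgr6+ cells, with a sum of 10.9 in Lgr5+ and 80.7 in Lgr6+ cells, and *Pecam1* at 0.303 and 8.31. Of these, 3 were kept only through Lgr6+ cells, and the other 3 passed an FPKM of 1 in both populations. Of the 8 macrophage markers 6 were kept, each only through its value in Lgr6+ cells, so their number past the limit is not read as a result. The list summed to 1.12 and 205, with *C1qb*, *C1qc*, *Tyrobp*, *Csf1r*, *Ptprc* and *Aif1* at 0 in Lgr5+ cells. The mesenchyme markers summed to 308 and 314, or to 129 and 213 without *Lum*. Higher in Lgr6+ cells were 2 of 6, *Col1a2* (15.8 and 90.2) and *Col3a1* (5.07 and 32.4), and higher in Lgr5+ cells was 1, *Lum* (179 and 101). Under the limit were *Col1a1* (1.21 and 2.16), *Dcn* (91.8 and 74.9) and *Pou3f4* (14.9 and 13.2). With equal totals these counts were 3 and 0. The glial markers summed to 36.5 and 147, with 2 of 4 kept markers higher in Lgr6+ cells and 1 in Lgr5+ cells. The neuronal markers summed to 93.0 and 124, or to 32.8 and 78.4 without *Nefm*, with 1 of 5 higher on each side. The glial and neuronal markers higher in Lgr5+ cells, *Mag* and *Tubb3*, were kept only through Lgr5+ cells. The erythroid markers summed to 629 and 108, with 4 of 5 higher in Lgr5+ cells. Of the 4, *Hba-a1* and *Hba-a2* were kept only through Lgr5+ cells. Where an FPKM of 1 was asked of both populations, 2 of 3 were higher in Lgr5+ cells. The part of these cell types in the levels of *Lgr5*, *Lgr6*, *Rspo1* and *Rspo3* was not tested.

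The other genes of the pathway were counted over lists that do not include the 10. Shares of all kept genes to set beside these counts are 28.5% toward Lgr6+ cells and 23.3% toward Lgr5+ cells. With equal totals the shares are 36.9% and 16.3%. In the Wnt receptor complex, which comprises the Frizzled receptors, Lrp5, Lrp6 and the Dvl adaptors, 13 of 15 genes were kept. At least 1.5-fold higher in Lgr6+ cells was 1 of them, *Dvl1*, at an FPKM of 7.40 in Lgr5+ and 19.6 in Lgr6+ cells. At least 1.5-fold higher in Lgr5+ cells were 5, led by *Fzd8* (16.7 and 4.48), *Dvl3* (3.12 and 0.552) and *Dvl2* (13.5 and 6.57). *Dvl3* was kept only through Lgr5+ cells. Where an FPKM of 1 was asked of both populations, 4 of 11 genes were higher in Lgr5+ cells, against 22.5% of all such genes. The Dvl adaptors, which carry the signal from Frizzled receptors into the cell and help Znrf3 and Rnf43 to find them, thus differed in both directions. The list median was -0.23, against 0.035 over all kept genes. With equal totals it was 0.020, against 0.27 over all kept genes, and 2 genes were higher in Lgr6+ and 4 in Lgr5+ cells.

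In the β-catenin core, the destruction complex and the nuclear factors, 18 of 19 genes were kept, 12 of them under 1.5-fold. *Ctnnb1*, which encodes β-catenin, had an FPKM of 155 in Lgr5+ cells and 153.6 in Lgr6+ cells. Higher in Lgr6+ cells were the TCF/LEF genes *Tcf7* (0.306 in Lgr5+ and 2.73 in Lgr6+ cells) and *Lef1* (6.97 and 21.6). Higher in Lgr5+ cells were 4 genes, led by *Amer1*, which encodes a partner of Apc (6.65 and 1.64), *Tcf7l1* (19.7 and 10.2) and *Pygo1* (10.9 and 5.98). Members of the TCF/LEF family were thus found on both sides. *Tcf7* was kept only through Lgr6+ cells. The list median was -0.12, against 0.035 over all kept genes. With equal totals it was 0.11, against 0.27 over all kept genes, and 4 genes were higher in Lgr6+ and 2 in Lgr5+ cells.

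Of the 15 Wnt target and feedback genes 11 were kept. Higher in Lgr6+ cells were 5, led by 3 secreted or membrane inhibitors of Wnt signaling. *Wif1* had an FPKM of 0.0548 in Lgr5+ cells and 8.21 in Lgr6+ cells, *Apcdd1* was listed at 0 and 3.34, and *Notum* had 0.633 and 4.30. All 3 were kept only through Lgr6+ cells, and where an FPKM of 1 was asked of both populations, 1 of 7 genes of the list was higher in Lgr6+ cells and 4 in Lgr5+ cells, with a median of -0.73. Higher in Lgr5+ cells were 4, led by the ephrin receptor genes *Ephb2* (6.22 and 1.66) and *Ephb3* (19.6 and 8.48) and by *Ccnd1*, which encodes cyclin D1 (66.8 and 34.4). The list median was 0.10, against 0.035 over all kept genes. With equal totals it was 0.34, against 0.27 over all kept genes, and 5 genes were higher in Lgr6+ and 3 in Lgr5+ cells. Of the members known as Wnt targets, *Lgr5* was at least 1.5-fold higher in Lgr6+ cells, while *Lgr6*, *Znrf3*, *Rnf43* and *Axin2* stayed under 1.5-fold.

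All 10 heparan sulfate proteoglycan genes, whose products bind R-spondins and Wnts at the cell surface, were kept, and 5 were at least 1.5-fold higher in Lgr5+ cells. These were led by *Gpc5* (2.83 in Lgr5+ and 0.0451 in Lgr6+ cells), *Gpc1* (121 and 44.3) and *Gpc6* (14.0 and 6.00). *Gpc5* was kept only through Lgr5+ cells. Where an FPKM of 1 was asked of both populations, 4 of 9 genes were higher in Lgr5+ cells, against 22.5% of all such genes. The reverse was found for 1, *Sdc3* (5.09 and 8.78). The list median was -0.51, against 0.035 over all kept genes. With equal totals it was -0.26, against 0.27 over all kept genes, and 4 were higher in Lgr5+ and 2 in Lgr6+ cells. Of 9 other ligases of the family of Znrf3 and Rnf43, 6 were kept and 1 passed the limit, *Rnf128*, at 19.0 in Lgr5+ and 44.7 in Lgr6+ cells. The list median was 0.28, against 0.035 over all kept genes. With equal totals it was 0.54, against 0.27 over all kept genes, and 3 were higher in Lgr6+ cells.

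**Figure D4:**
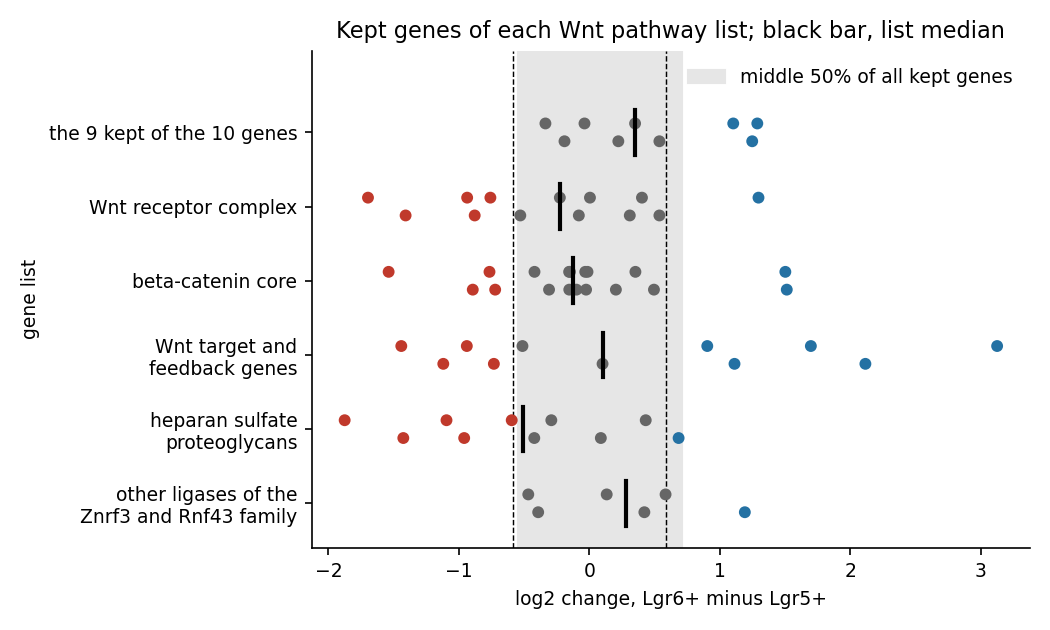
Log2 change (Lgr6+ minus Lgr5+) of the kept genes of each list, in blue where at least 1.5-fold higher in Lgr6+ cells, red where at least 1.5-fold higher in Lgr5+ cells and grey otherwise; black bars are list medians and the shaded band holds the middle 50% of all kept genes. The medians of the 6 groups drawn lie within the band.

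The changes of the members were then recalculated with a pseudocount of 0.1, as a plain ratio and under 3 other scalings. *Lgr5* ranged from 1.26 to 1.53 on the log2 scale and stayed above 1.5-fold in each. *Lgr4* ranged from 0.076 to 0.45 and *Lgr6* from 0.078 to 0.54. *Rspo1* ranged from 0.85 to 3.04 and *Rspo3* from 0.89 to 3.64, with the largest values at the smaller pseudocount or without one. No ratio can be formed for *Rspo3*. *Rspo2* ranged from 0.34 to 0.75. *Znrf3* ranged from -0.50 to -0.11, *Rnf43* from -0.36 to 0.032 and *Axin2* from -0.27 to 0.17, both changing sign only with equal totals.

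**Figure D5:**
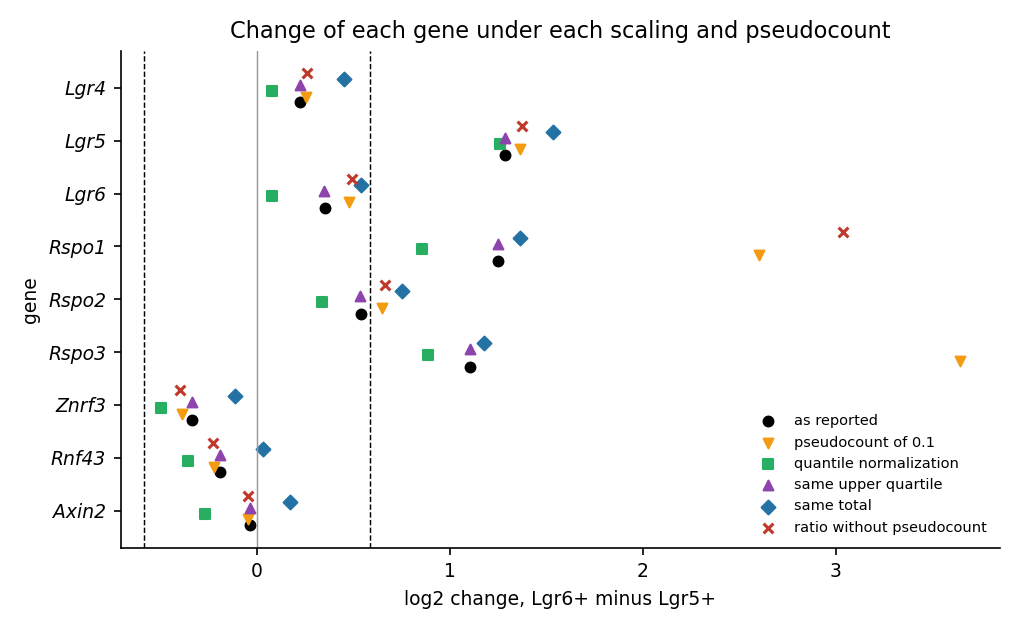
Log2 change (Lgr6+ minus Lgr5+) of the 9 kept genes under each scaling and pseudocount, with 1 marker per setting and dashed lines at 1.5-fold. The markers of *Lgr5* lie together between 1.26 and 1.53, those of *Rspo1* and *Rspo3* spread to 3.04 and 3.64, and those of *Rnf43* and *Axin2* lie on both sides of 0.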

How the data were processed

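EGFP+ cells of both reporter lines were compared by RNA-Seq. The authors made libraries with a low-input kit that amplifies cDNA, and the submitters' processing notes name Trimmomatic, TopHat, Cufflinks and the build mm10, whereas the paper's methods name mm9. No versions of these tools are given in the sources used here. The authors deposited FPKM values with the replicates of each population combined, so the depth of single libraries is unknown and no test was made. The authors' fold change, *p*-value and *q*-value columns were not used. Gene starts lay within 2 kb of the GRCm38 start for 83.9% of 19493 symbols and of the NCBIM37 start for 4.58%, so positions were read as GRCm38, with 1 added to each start, as the table counts from 0. The genes and lists were chosen with earlier results of these data known. The text names all 10 genes and, from each pathway list, up to 3 genes per direction with the largest change past 1.5-fold, plus the marker genes. *Ctnnb1*, further single markers and the genes that overlap *Lgr5* and *Rnf43* were named outside this rule, after their values were seen. Alternatives were the pseudocount, the filter, the fold limit and the scaling, and marker sums without their highest gene, which were added after seeing the data. The counting code was tested on simulated data. Python 3.11.15, numpy 2.4.6, pandas 2.3.3 and matplotlib 3.10.9 were used.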

Additional observations from a re-analysis of the deposited data

How the results depend on the processing

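Members at least 1.5-fold higher in Lgr6+ cells numbered 3 of 9. With *Rspo2* they numbered 4 of 9 with a pseudocount of 0.1 and with equal totals, against 31.3% and 36.9% of all kept genes. As a plain ratio they were 3 of 8, *Lgr5*, *Rspo1* and *Rspo2*, against 28.9%. Only 1, *Lgr5*, was left when an FPKM of 5 was asked of either population (of 5 members) or an FPKM of 1 of both (of 7). These filters leave out *Rspo1* and *Rspo3*. Under these filters 2415 and 2414 of 10013 genes, and 2392 and 2516 of 11177 genes, were higher in Lgr6+ and in Lgr5+ cells, so the excess toward Lgr6+ cells (28.5% against 23.3%) became 24.1% against 24.1% and turned to 21.4% against 22.5%. Quantile normalization gave 3422 and 3420 of 13436 genes. At a 2-fold limit these counts were 2443 and 1575. Of 58 kept pathway list genes 10 were higher in Lgr6+ and 18 in Lgr5+ cells. These counts were 6 and 16 of 47 under the first filter, 5 and 16 of 50 under the second, and 8 and 8 at 2-fold. With equal totals they were 16 and 13, where the balance turned. Of all kept genes, 36.9% were then higher in Lgr6+ and 16.3% in Lgr5+ cells, so the whole table moved the same way. The changes of *Rnf43* and *Axin2* turned to 0.032 and 0.17 with equal totals, through the shift of all genes that this scaling makes. The share of *Lgr6* became 17.6% in Lgr5+ and 10.4% in Lgr6+ cells when *Lgr4* was left out of the sum. No paired analysis was possible because the table holds 1 combined value per population, and for the same reason no replicate could be left out.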
